A study of Mus musculus with 12 samples.

Results

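Endothelial cells set vascular tone through several local mediators. eNOS (gene Nos3) makes nitric oxide, which relaxes the smooth muscle beneath, and DDAH1 and DDAH2 break down asymmetric dimethylarginine, an endogenous inhibitor of nitric oxide synthases. Bradykinin acts through the B1 and B2 receptors (Bdkrb1, Bdkrb2), endothelin-1 (Edn1) is cut into its active form by ECE-1 (Ece1) and constricts vessels through the endothelin A receptor (Ednra), and angiotensin-converting enzyme (Ace) both makes angiotensin II, the ligand of the AT1a receptor (Agtr1a), and degrades bradykinin. These 10 genes were taken by name from a table of 28689 genes, and all 10 were listed. Each was compared between mouse lung endothelial cells (MLECs) from endothelial Sp1/Sp3 double-knockout mice (dKO) and from control mice (CTR), with 6 RNA-seq libraries in each group.

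Sp1 and Sp3 are transcription factors whose zinc fingers contact GC boxes and, with them, GT boxes in many promoters. The dKO mice carried a tamoxifen-activated Cre under the VE-cadherin promoter with floxed alleles of both genes (VE-CAD-CreERT2+/Sp1 fl/fl/Sp3 fl/fl). The CTR mice, labelled WT for genotype, were Cre-negative littermates with the same floxed alleles, and both groups received tamoxifen. All were adult males according to the study's methods. MLECs were selected from digested lungs with beads against CD31 and, after they had grown to confluence, with beads against ICAM-2, and early passages were used. The labels do not say how many mice went into a library, so the p-values measure the spread between these libraries.

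In the dKO libraries, 5 of the 10 genes were higher: Ece1, Bdkrb2, Bdkrb1, Ddah2 and, less firmly, Nos3. None was lower, 4 passed the filter but not the test (Edn1, Ddah1, Ednra, Ace), and Agtr1a was too low to enter it. Tests were made on log2(FPKM + 1), where FPKM is the fragments of a gene divided by its length and by the library's total, with limma over the 12467 genes that reached 1 FPKM in at least 6 libraries, and a gene was called at a Benjamini-Hochberg adjusted p under 0.05. Of all genes tested, 53.1% were called in either direction, 20.4% higher and 32.6% lower in dKO, so a call by itself was common in this comparison. The split of higher and lower calls depended on scaling: it was 2549 to 4065 with FPKM as deposited and 3213 to 3012 after median-of-ratios scaling. The median log2 fold change was 0.34 over the 9 members tested and -0.095 over all genes tested. No member passed the study's additional threshold of an absolute log2 fold change over 1.5, which 1.98% of all genes tested did. At a threshold of 1.5-fold, which the study also names, Bdkrb2, Ece1 and Bdkrb1 passed with the adjusted p, as did 17.9% of all genes tested in either direction.

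Library totals, recovered from the step size of the FPKM values, ran from 15523054 to 17938286 fragments. Sp1, the first targeted gene, was 19.4 to 23.7 FPKM in CTR and 8.42 to 12.1 FPKM in dKO, and its log2 fold change was -0.95 ± 0.091 (SE, adjusted p = 5.68e-06). Sp3 was 24.2 to 31.1 FPKM in CTR and 22.5 to 26.9 FPKM in dKO, with a log2 fold change of -0.14 ± 0.067 (SE, adjusted p = 0.0902). Fragments from parts of a transcript that Cre leaves in place still count towards its FPKM. How far this bears on the levels of Sp1 and Sp3 was not tested. Endothelial markers were present in every library, with Cdh5 (VE-cadherin) at 66.8 to 111 FPKM in CTR and 125 to 162 FPKM in dKO. Some markers of other cells were above Cdh5: in CTR, the fibroblast gene Col1a1 was 1070 to 1267 FPKM, the smooth muscle gene Acta2 409 to 1328 FPKM and the macrophage gene Lyz2 523 to 999 FPKM. Others were lower, with summed mesothelial markers at 20.1 to 30.6 FPKM and summed leukocyte markers at 1.57 to 4.72 FPKM in CTR. Several of these marker lists differed between the groups. Of 10 endothelial markers 9 were higher in dKO (summed level 169 to 251 FPKM in CTR, 308 to 425 FPKM in dKO). Of 8 macrophage markers 7 were higher and 1, Marco, was lower (summed level 778 to 1319 against 2043 to 4444 FPKM). The summed fibroblast markers were 2129 to 2696 FPKM in CTR and 828 to 1652 FPKM in dKO, with 3 of 6 tested lower and 1 higher. Summed smooth muscle markers overlapped (469 to 1429 against 414 to 854 FPKM), with 1 of 4 tested higher and none lower. In dKO the summed mesothelial markers were 32.2 to 104 FPKM, with 3 of 4 tested higher and none lower. The summed leukocyte markers were 6.49 to 10.6 FPKM in dKO, with 2 of 2 tested higher. Summed lymphatic endothelial markers overlapped (88.6 to 162 against 112 to 226 FPKM), with 3 of 5 tested higher and none lower. Summed lung epithelial markers overlapped (86.8 to 517 against 149 to 362 FPKM), with 1 of 7 tested higher and none lower. Summed pericyte markers overlapped (73.3 to 106 against 51.9 to 104 FPKM), with 1 of 5 tested higher (Rgs5) and 1 lower (Kcnj8). Their part in the results below was not tested, and in bulk RNA a larger share of cells of a type and more RNA per cell cannot be told apart.

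The promoters of the genes are shown because Sp1 and Sp3 are known for binding the GC box. The windows hold the 200 bases before the annotated start of each gene's canonical transcript (GENCODE vM39 on GRCm39, the build of the files), 5′ to 3′ on the gene's strand, with the GC box (GGGCGG or CCGCCC) in capitals. They lie at chr5:24569587-24569786 (Nos3, plus strand), chr17:35277787-35277986 (Ddah2, plus strand), chr13:42454542-42454741 (Edn1, plus strand), chr4:137589330-137589529 (Ece1, plus strand) and chr11:105858269-105858468 (Ace, plus strand). For Edn1 a longer annotated transcript begins further upstream, so this window lies inside the annotated gene. Of the windows searched but not shown, that of Bdkrb1 also lies inside its gene and that of Ddah1 partly so. Starts further upstream were not searched.
Nos3: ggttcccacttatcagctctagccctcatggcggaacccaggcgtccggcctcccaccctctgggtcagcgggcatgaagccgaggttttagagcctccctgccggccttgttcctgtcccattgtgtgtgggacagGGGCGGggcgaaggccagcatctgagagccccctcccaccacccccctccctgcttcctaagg
Ddah2: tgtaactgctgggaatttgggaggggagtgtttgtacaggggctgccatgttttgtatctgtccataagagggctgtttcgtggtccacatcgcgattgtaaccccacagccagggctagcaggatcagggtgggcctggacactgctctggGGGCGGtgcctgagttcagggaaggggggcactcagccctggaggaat
Edn1: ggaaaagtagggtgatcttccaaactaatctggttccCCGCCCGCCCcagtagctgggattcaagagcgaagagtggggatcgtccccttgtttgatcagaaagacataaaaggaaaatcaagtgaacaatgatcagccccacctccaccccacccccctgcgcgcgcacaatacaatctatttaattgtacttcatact
Ece1: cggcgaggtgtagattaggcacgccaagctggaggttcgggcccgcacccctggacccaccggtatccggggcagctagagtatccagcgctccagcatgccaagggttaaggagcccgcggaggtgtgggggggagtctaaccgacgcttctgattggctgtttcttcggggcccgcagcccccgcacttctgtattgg
Ace: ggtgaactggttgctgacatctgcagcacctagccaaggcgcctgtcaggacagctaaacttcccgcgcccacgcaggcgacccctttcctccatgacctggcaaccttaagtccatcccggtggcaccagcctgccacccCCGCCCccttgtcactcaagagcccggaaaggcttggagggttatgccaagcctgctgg
The windows of 9 members were searched, without Agtr1a, and 4 held a GC box. Nos3 had 1, beginning 63 bases before the start, Ddah2 had 1 at 48 bases and Ace 1 at 59 bases. Edn1 had 2 that overlapped, at 163 and 159 bases. Ece1, Bdkrb1, Bdkrb2, Ddah1 and Ednra had none, so of the 5 genes that were higher in dKO, Nos3 and Ddah2 held the box. A GC box was present in 34.8% of the 21770 windows of all protein-coding genes and in 48.7% of those of the genes tested. Among the genes tested it was in 46.5% of those higher and in 48.4% of those lower in dKO. The GT box (GGGTGG or CCACCC), which shares no full match with the GC box, was in 4 of the 9 windows (Nos3, Ddah2, Edn1, Ace). It was in 25.1% of all protein-coding windows and in 28.1% of those of the genes tested. Among the genes tested it was in 30.4% of those higher and in 26.8% of those lower in dKO. A match of these letters is a description of the sequence and not a measured binding site.

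FPKM is per length, so levels can be ordered across genes. In CTR the order of the mean levels was Ece1 (34.8 FPKM), Ddah2 (34.0 FPKM), Ednra (30.8 FPKM), Ace (28.1 FPKM), Ddah1 (18.2 FPKM), Edn1 (17.2 FPKM), Bdkrb2 (3.82 FPKM), Bdkrb1 (2.93 FPKM), Nos3 (1.62 FPKM) and Agtr1a (0.455 FPKM). Only 2 steps of this order held in all 6 CTR libraries, that from Edn1 down to Bdkrb2 and that from Nos3 down to Agtr1a. The other neighbours changed places in at least 1 CTR library. Nos3, often used as an endothelial identity gene, thus had a lower mean level than all of the other genes except Agtr1a, and Cdh5 had a mean of 88.9 FPKM in CTR.

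**Figure D1:**
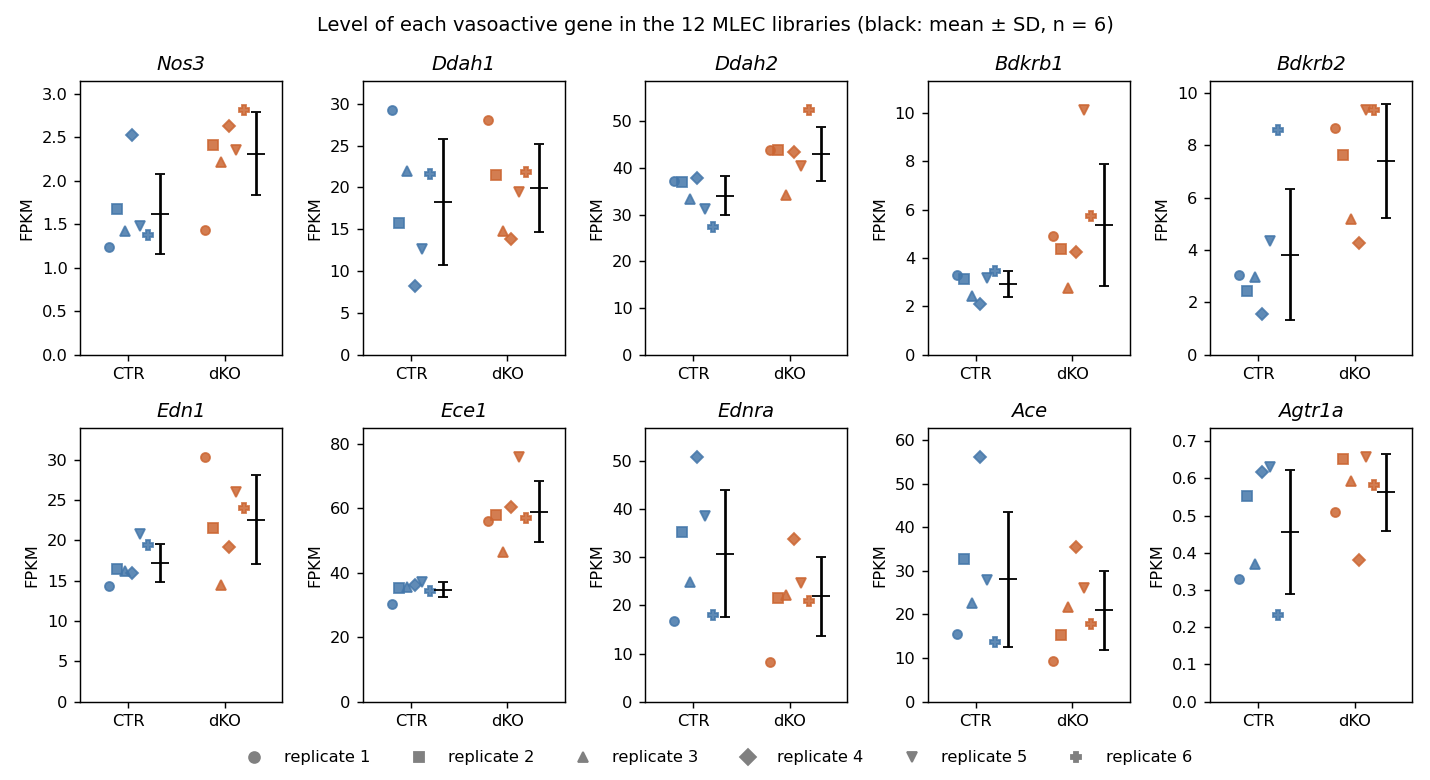
FPKM (vertical axis, linear, from 0) of the 10 vasoactive genes in the 6 CTR (blue) and 6 dKO (orange) libraries, with symbols for replicate numbers and black bars for mean ± SD. Ece1 is the only gene whose groups do not overlap, and Ednra, Ace and Ddah1 spread widely within both groups.

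Nitric oxide genes are described first. Nos3 was at 1.24, 1.68, 1.42, 2.52, 1.48 and 1.38 FPKM in CTR replicates 1 to 6 and at 1.43, 2.41, 2.22, 2.63, 2.35 and 2.81 FPKM in dKO replicates 1 to 6. CTR replicate 4 and dKO replicate 1 lay within the range of the opposite group, while the other 5 CTR libraries were below the other 5 dKO libraries. The mean was 1.62 ± 0.465 FPKM in CTR and 2.31 ± 0.478 FPKM in dKO (SD, n = 6), 1.43-fold higher, and the log2 fold change was 0.34 ± 0.13 (SE, adjusted p = 0.0377). These levels rested on 89 to 195 fragments per library. With 0.01 added in place of 1 the log2 fold change was 0.52. The call was lost without a filter (adjusted p = 0.0818) and after rescaling to TPM, which gives every library the same sum over transcripts (adjusted p = 0.0546), and in 10 of the 12 fits that left out a library.

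Ddah2 was at 37.2, 37.0, 33.4, 38.0, 31.2 and 27.4 FPKM in the CTR libraries and at 43.8, 43.9, 34.3, 43.5, 40.3 and 52.4 FPKM in the dKO libraries. All dKO libraries except replicate 3 exceeded all CTR libraries. The rise was 1.27-fold, with a log2 fold change of 0.33 ± 0.10 (SE, adjusted p = 0.0168). Its paralog Ddah1 was at 29.2, 15.7, 21.9, 8.19, 12.7 and 21.6 FPKM in CTR and at 28.0, 21.5, 14.7, 13.9, 19.4 and 21.9 FPKM in dKO, with full overlap between the groups. Its log2 fold change of 0.19 (95% confidence interval -0.37 to 0.74, adjusted p = 0.563) did not pass the test, and without CTR replicate 4 it was -0.0062. The log2 ratio of Ddah1 to Ddah2 within a library differed by -0.14 between dKO and CTR (exact permutation test, adjusted p = 0.712 over 8 ratios).

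Both kinin receptors were higher in dKO. Bdkrb2, the receptor for intact bradykinin, was at 3.03, 2.45, 2.96, 1.56, 4.33 and 8.60 FPKM in CTR and at 8.66, 7.62, 5.19, 4.26, 9.34 and 9.33 FPKM in dKO. CTR replicate 6 stood among the dKO values, and the other 5 CTR libraries were at or below 4.33 FPKM. The mean was 1.94-fold higher, with the largest fold change of the members tested (log2 0.89 ± 0.28, SE, adjusted p = 0.0172). Bdkrb1, the receptor for the des-Arg kinins that is known to be induced by inflammation, was at 3.28, 3.13, 2.44, 2.07, 3.18 and 3.48 FPKM in CTR and at 4.89, 4.38, 2.74, 4.23, 10.1 and 5.75 FPKM in dKO. Of the dKO libraries, 5 exceeded all CTR libraries and replicate 3 did not, and replicate 5 was far above the rest. The rise was 1.83-fold (log2 0.62 ± 0.21, SE, adjusted p = 0.022), on 52 to 254 fragments per library. The receptors lie next to each other on chromosome 12, 3372 bases apart on the same strand. Their ratio did not differ detectably: the log2 ratio of Bdkrb1 to Bdkrb2 was lower by 0.32 in dKO (SE 0.31, exact permutation adjusted p = 0.436).

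Of the endothelin genes, Ece1 showed the clearest difference. It was at 30.4, 35.2, 35.6, 36.1, 37.1 and 34.4 FPKM in CTR and at 56.0, 58.1, 46.6, 60.5, 75.8 and 57.1 FPKM in dKO. Every dKO library was above every CTR library, which held for 11.3% of all genes tested. The mean rose from 34.8 ± 2.32 to 59.0 ± 9.50 FPKM (SD, n = 6), 1.70-fold, with a log2 fold change of 0.73 ± 0.096 (SE, adjusted p = 5.19e-05). The two-sided exact permutation test over libraries gave p = 0.00216, the smallest it can give.

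The peptide itself did not pass the test. Edn1 was at 14.4, 16.4, 16.2, 16.0, 20.8 and 19.4 FPKM in CTR and at 30.3, 21.5, 14.5, 19.2, 26.0 and 23.9 FPKM in dKO. The dKO replicates 1, 2, 5 and 6 were above all CTR libraries, replicate 4 lay within their range and replicate 3 near its lower end. The mean was 1.31-fold higher and the log2 fold change was 0.35 (95% confidence interval 0.027 to 0.67, adjusted p = 0.0642). Edn1 passed after quantile normalization (adjusted p = 0.0453), after median-of-ratios scaling (adjusted p = 0.0222), without CTR replicate 5 (adjusted p = 0.0477) and without dKO replicate 3 (adjusted p = 0.00762).

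Ednra, the receptor through which endothelin-1 contracts smooth muscle, ran the other way in its mean, without passing the test. It was at 16.8, 35.4, 24.9, 50.8, 38.7 and 18.1 FPKM in CTR and at 8.29, 21.5, 22.2, 33.9, 24.6 and 20.9 FPKM in dKO. Apart from dKO replicate 1, every dKO library lay inside the CTR range. The log2 fold change was -0.47 (95% confidence interval -1.16 to 0.22, adjusted p = 0.233). Set against Edn1 in the same library, the log2 ratio of Edn1 to Ednra differed by 0.85 (SE 0.46, exact permutation adjusted p = 0.32), a difference within the spread of the libraries.

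Ace was at 15.6, 32.8, 22.7, 56.0, 27.8 and 13.6 FPKM in CTR and at 9.42, 15.3, 21.8, 35.4, 26.1 and 17.9 FPKM in dKO. The groups overlapped, although dKO replicate 1 lay below all CTR libraries and CTR replicate 4 above all dKO libraries. Replicate 4 was the highest library in both groups. Its log2 fold change was -0.36 (95% confidence interval -1.10 to 0.38, adjusted p = 0.396). Against the endothelial gene Cdh5 in the same library, Ace was lower by 1.04 on the log2 scale in dKO (SE 0.31, exact permutation p = 0.00649, adjusted p = 0.0519 over 8 ratios). That ratio ran from -2.54 to -0.98 in CTR and from -3.78 to -2.20 in dKO, which overlap, and its adjusted p stayed above the threshold except without CTR replicate 6 (adjusted p = 0.0346). Nos3 and Edn1 set against Cdh5 differed by -0.17 (adjusted p = 0.436) and -0.31 (adjusted p = 0.369) in the exact permutation test. Since Cdh5 itself was 1.58-fold higher in dKO, these ratios start from a partner that moved.

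Agtr1a, the main receptor for angiotensin II in rodent vessels, was at 0.33, 0.55, 0.37, 0.62, 0.63 and 0.23 FPKM in CTR and at 0.51, 0.65, 0.59, 0.38, 0.66 and 0.58 FPKM in dKO. The groups overlapped, on 11 to 32 fragments per library, and the exact permutation test gave p = 0.201. The test did not detect a difference.

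**Figure D2:**
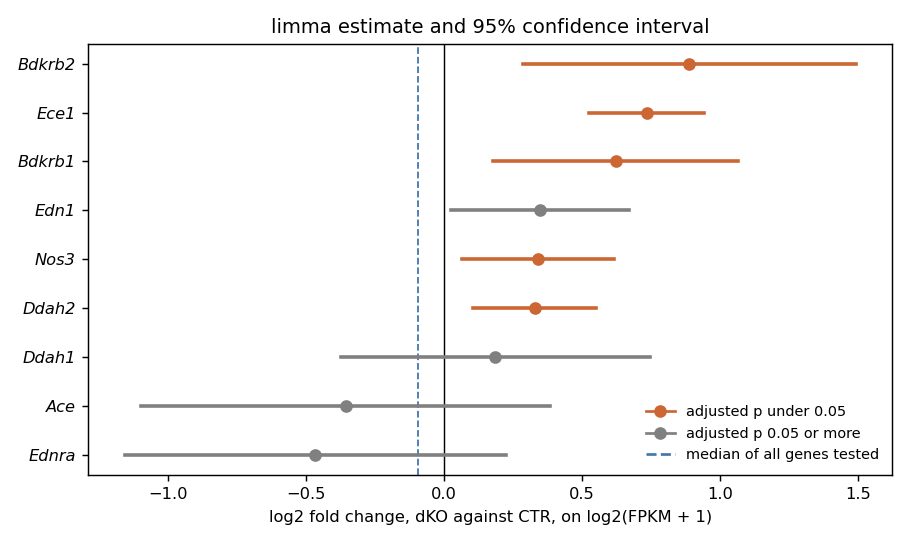
log2 fold change (horizontal axis, dKO against CTR, on log2(FPKM + 1)) of the 9 members tested, with 95% confidence intervals from limma over all genes and a dashed line at the median of all genes tested, -0.095. The 5 genes in orange were called higher, and the widest intervals are those of Ace and Ednra.

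Some reads of 4 members could not be assigned by position alone, because exons of antisense genes overlap theirs and it is not stated whether the counting used strand. The largest overlap, 2452 bases, was between Ednra and Gm45714, which was at 0.663 to 5.36 FPKM over all libraries. Nos3 overlaps Gm15587, which reached at most 0.0760 FPKM, and Atg9b. Atg9b was low in both groups, at 0.0150 to 0.160 FPKM in CTR and 0.260 to 0.420 FPKM in dKO. Its part in the level of Nos3 was not tested. Edn1 overlaps Gm47118, at most 2.12 FPKM, and Gm60910, and Ace overlaps Gm11651. Gm60910 (581 shared bases) and Gm11651 (952 shared bases) were not in the table, so their levels are not known. How far these overlaps affect the members' values was not measured.

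The members also differed widely between libraries of the same group. The coefficient of variation in CTR ran from 6.67% for Ece1 to 65.7% for Bdkrb2, and was 55.1% for Ace, 43.0% for Ednra and 41.3% for Ddah1. After the group means were subtracted from log2(FPKM + 1), Ednra and Ace rose and fell together over the 12 libraries (Pearson r = 0.94, permutation within groups p = 6.0e-05, adjusted p = 0.00216 over 36 pairs, and Spearman rho = 0.92, p = 0.00016, adjusted p = 0.00288). Without the 2 libraries farthest from the median of Ednra r was again 0.94, and it was 0.96 within CTR and 0.93 within dKO. CTR replicate 4 and dKO replicate 4 were high in both genes, and CTR replicates 1 and 6 and dKO replicate 1 were low.

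Ddah1 moved against both. Its r was -0.87 with Ednra (permutation adjusted p = 0.0036) and -0.88 with Ace (permutation adjusted p = 0.00672), and without the 2 farthest libraries -0.85 and -0.82. Nos3 moved with them, at r = 0.86 with Ednra (permutation adjusted p = 0.0109) and 0.82 with Ace (permutation adjusted p = 0.0215), and against Ddah1 at r = -0.75 (permutation adjusted p = 0.0322). The Nos3 relations rested in part on CTR replicate 4 and dKO replicate 1, without which r was 0.69, 0.60 and -0.51. By Spearman's rho the relation of Nos3 to Ddah1 did not pass (rho = -0.71, permutation adjusted p = 0.0539). Of the 36 pairs these 6 passed by Pearson's r. The share of pairs that would pass among all genes tested was not computed. The kinin receptors, at r = 0.57 (permutation adjusted p = 0.0768), passed by rank alone (rho = 0.87, permutation adjusted p = 0.00891), as did Bdkrb2 with Edn1 (r = 0.63, permutation adjusted p = 0.0648, and rho = 0.76, permutation adjusted p = 0.0395).

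The pattern was not particular to vasoactive genes. The leading component of the variation within groups, over all genes tested, held 42.6% of the variance. CTR replicate 4 (score 31.5) and dKO replicate 4 (19.9) stood at one end of it and dKO replicate 1 (-29.8), CTR replicate 6 (-22.9) and CTR replicate 1 (-18.8) at the other. Ednra, Ace and Nos3 followed these scores (r = 0.98, 0.97 and 0.88) and Ddah1 ran against them (r = -0.91). These are the genes of the pairs that passed by Pearson's r. As a description over the same 12 centred libraries, the marker genes most like Ace were Tek (an endothelial receptor kinase, r = 0.97) and Sftpa1 (an alveolar epithelial gene, r = 0.95), and the most opposite were the smooth muscle genes Cnn1 (r = -0.96) and Acta2 (r = -0.95). For Ednra the marker most like it was Pdgfra, a fibroblast receptor (r = 0.98), and the most opposite was Cnn1 (r = -0.93). For Bdkrb2 the marker most like it was Acta2 (r = 0.84), and for Bdkrb1 the most opposite was the macrophage receptor Mrc1 (r = -0.93). For Nos3 the marker most like it was the pericyte gene Rgs5 (r = 0.92), and the most opposite was Cnn1 (r = -0.80). Among the endothelial markers the one most like Nos3 was Tek (r = 0.75). Several marker lists were mixed. With Nos3, r ran from -0.73 to 0.92 over the pericyte markers. With Ace, r ran from -0.37 to 0.97 over the endothelial markers and from -0.54 to 0.95 over the lung epithelial markers. With Ednra, r ran from -0.13 to 0.98 over the fibroblast markers. Smooth muscle markers with Bdkrb2 (0.59 to 0.84) and macrophage markers with Bdkrb1 (-0.93 to -0.099) kept the same sign. Within a library all genes share its depth and its mixture of cells, and what the common pattern reflects was not tested.

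**Figure D3:**
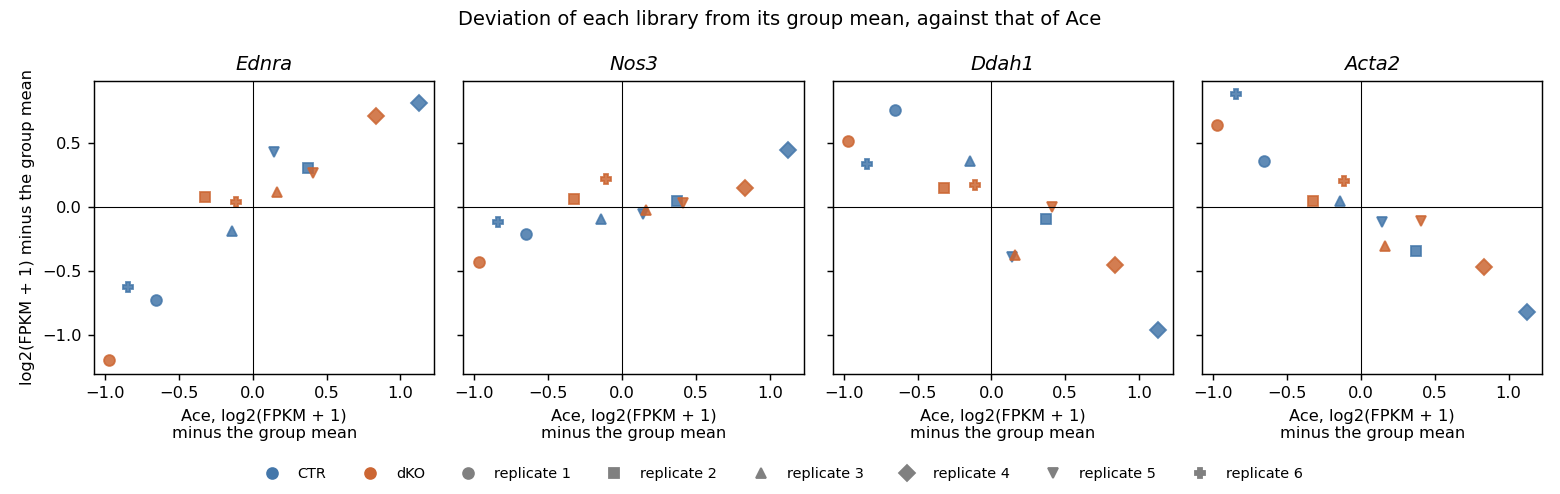
Each point is a library: the horizontal axis is the deviation of Ace from its group mean and the vertical axis that of Ednra, Nos3, Ddah1 or the smooth muscle gene Acta2, all on log2(FPKM + 1). Over CTR (blue) and dKO (orange) libraries Ednra tends to be high and Ddah1 and Acta2 low where Ace is high. Nos3 follows Ace less closely in dKO, where replicate 6 has the highest Nos3 with Ace below its group mean.

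Among all genes tested, those whose pattern within groups was most like that of Nos3 were Gja5 (connexin 40, an arterial gap junction gene, r = 0.96), Larp6 (r = 0.94) and Gm7932 (r = 0.93). Gja5 was also higher in dKO (3.48 against 9.07 FPKM, log2 fold change 1.23, adjusted p = 0.0041). Those most like Edn1 were Angpt2, an endothelial ligand of the Tie2 receptor (r = 0.89), Plcd3 (r = 0.87) and Gata6 (r = 0.86), and none of these passed the test between groups. Those most like Ace were Nptx1, Chpt1 and Tmtc1 (all r = 0.98), and none of these passed it either. They were ranked by r over the 12 centred libraries.

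The other genes of the systems were described from a list of 67 genes, of which 64 were in the table and 43 passed the filter. In dKO 19 were higher and 7 lower, and 17 did not pass the test, against 20.4% higher and 32.6% lower among all genes tested. Their median log2 fold change was 0.17. Of 25 nitric oxide genes tested, 10 were higher, 4 lower and 11 not called.

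Within the nitric oxide list the 4 largest differences were those of Arg1, Ass1, Arg2 and Slc7a1, genes of arginine metabolism or transport, arginine being the substrate of nitric oxide synthases. Arg1, arginase 1, which cleaves arginine to urea and ornithine and is also a gene of activated macrophages, was 13.5 to 58.6 FPKM in CTR and 113 to 705 FPKM in dKO (log2 fold change 3.63 ± 0.41, SE, adjusted p = 1.6e-05). Ass1, which rebuilds arginine from citrulline, was 4.73 to 6.95 FPKM in CTR and 17.5 to 21.8 FPKM in dKO (log2 1.57 ± 0.089, SE, adjusted p = 1.88e-07). Arg2, the mitochondrial arginase, was 0.321 to 1.00 FPKM in CTR and 0.632 to 7.68 FPKM in dKO (log2 1.46 ± 0.30, SE, adjusted p = 0.00121). The added 1 FPKM compresses the change of so low a gene: with 0.01 added the log2 fold change of Arg2 was 2.49, and the ratio of its mean FPKM was 6.62. Slc7a1, the cationic amino acid transporter that carries arginine into the cell, fell from 11.2 to 24.1 FPKM in CTR to 4.50 to 7.49 FPKM in dKO (log2 -1.25 ± 0.17, SE, adjusted p = 6.45e-05). The macrophage markers were higher in the same libraries as Arg1, and their part in its level was not tested.

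Cav1, caveolin-1, which binds eNOS and holds it inactive in caveolae, was 56.3 to 85.03 FPKM in CTR and 97.3 to 146 FPKM in dKO, without overlap (log2 0.75 ± 0.11, SE, adjusted p = 0.000164). Within a library the log2 ratio of Nos3 to Cav1 was lower by 0.26 in dKO (SE 0.20, exact permutation adjusted p = 0.436), within the spread of the libraries. Pde5a, the phosphodiesterase that breaks down cyclic GMP downstream of nitric oxide, was 8.52 to 10.5 FPKM in CTR and 3.81 to 6.84 FPKM in dKO (log2 -0.68 ± 0.11, SE, adjusted p = 0.000237). Nosip, an eNOS-interacting protein, was 15.2 to 18.2 FPKM in CTR and 11.9 to 14.0 FPKM in dKO (log2 -0.34 ± 0.064, SE, adjusted p = 0.000813). Further genes of the list included Gch1, Nostrin, Asl, Nos2 and Qdpr as higher and Hsp90ab1 as lower.

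Of the 16 other kinin genes only 7 passed the filter. The kininogen and kallikrein genes Kng1, Kng2, Klk1 and Klkb1 did not, with at most 24 fragments in any library. Of the kinin-processing peptidases, Xpnpep1, an aminopeptidase that can inactivate bradykinin, was 14.7 to 17.5 FPKM in CTR and 17.2 to 23.8 FPKM in dKO (log2 0.32 ± 0.075, SE, adjusted p = 0.00308). Cpd, carboxypeptidase D, which can make the des-Arg kinins that Bdkrb1 binds, was 32.2 to 38.9 FPKM in CTR and 38.0 to 53.3 FPKM in dKO (log2 0.26 ± 0.084, SE, adjusted p = 0.0181), a call lost after rescaling to TPM (adjusted p = 0.0642). Thop1 and Prep, peptidases that cleave small peptides such as bradykinin, were lower, by -0.59 ± 0.12 and -0.53 ± 0.13 on the log2 scale (SE, adjusted p = 0.00115 and 0.00394). Serping1, Mme and Nln did not pass the test.

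Of the other endothelin genes only Furin and Ednrb passed the filter. Furin, the protease that releases big endothelin from its precursor before ECE-1 acts, was 19.7 to 23.9 FPKM in CTR and 29.2 to 34.5 FPKM in dKO, without overlap (log2 0.52 ± 0.065, SE, adjusted p = 3.62e-05). Ednrb, the endothelin B receptor, was 5.96 to 14.8 FPKM in CTR and 8.53 to 16.2 FPKM in dKO (log2 -0.031 ± 0.20, SE, adjusted p = 0.908). Furin and Ece1 were thus above the CTR range in every dKO library, which held for 11.3% of all genes tested. For Edn1 the groups overlapped. The other listed genes Edn3, Ece2, Mmel1 and Cma1 were below the filter and were not tested.

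Of 9 other angiotensin genes tested, 6 were higher, 1 lower and 2 not called, against 20.4% higher and 32.6% lower among all genes tested. Anpep, aminopeptidase N, which trims angiotensin III, was 2.22 to 4.69 FPKM in CTR and 14.9 to 30.4 FPKM in dKO (log2 2.30 ± 0.19, SE, adjusted p = 1.8e-06). Ctsd, the lysosomal protease cathepsin D, was 223 to 324 FPKM in CTR and 534 to 949 FPKM in dKO (log2 1.49 ± 0.14, SE, adjusted p = 3.79e-06). Agtrap, whose product binds the AT1 receptor, was 9.02 to 17.7 FPKM in CTR and 13.4 to 22.5 FPKM in dKO (log2 0.47 ± 0.15, SE, adjusted p = 0.0193). Enpep, aminopeptidase A, which makes angiotensin III from angiotensin II, was 15.01 to 27.1 FPKM in CTR and 11.05 to 18.7 FPKM in dKO (log2 -0.41 ± 0.14, SE, adjusted p = 0.0251). The Enpep call was lost in 4 alternatives, with adjusted p of 0.0506 without dKO replicate 1, 0.0514 without a filter, 0.0562 without CTR replicate 2 and 0.079 after median-of-ratios scaling.

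Ren1, renin, had at most 1 fragment in any library. Agt, angiotensinogen, was 0.435 to 3.12 FPKM in CTR and 0.755 to 5.69 FPKM in dKO (log2 0.71 ± 0.31, SE, adjusted p = 0.069). Agtr1b, Agtr2 and Mas1 were below the filter.

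**Figure D4:**
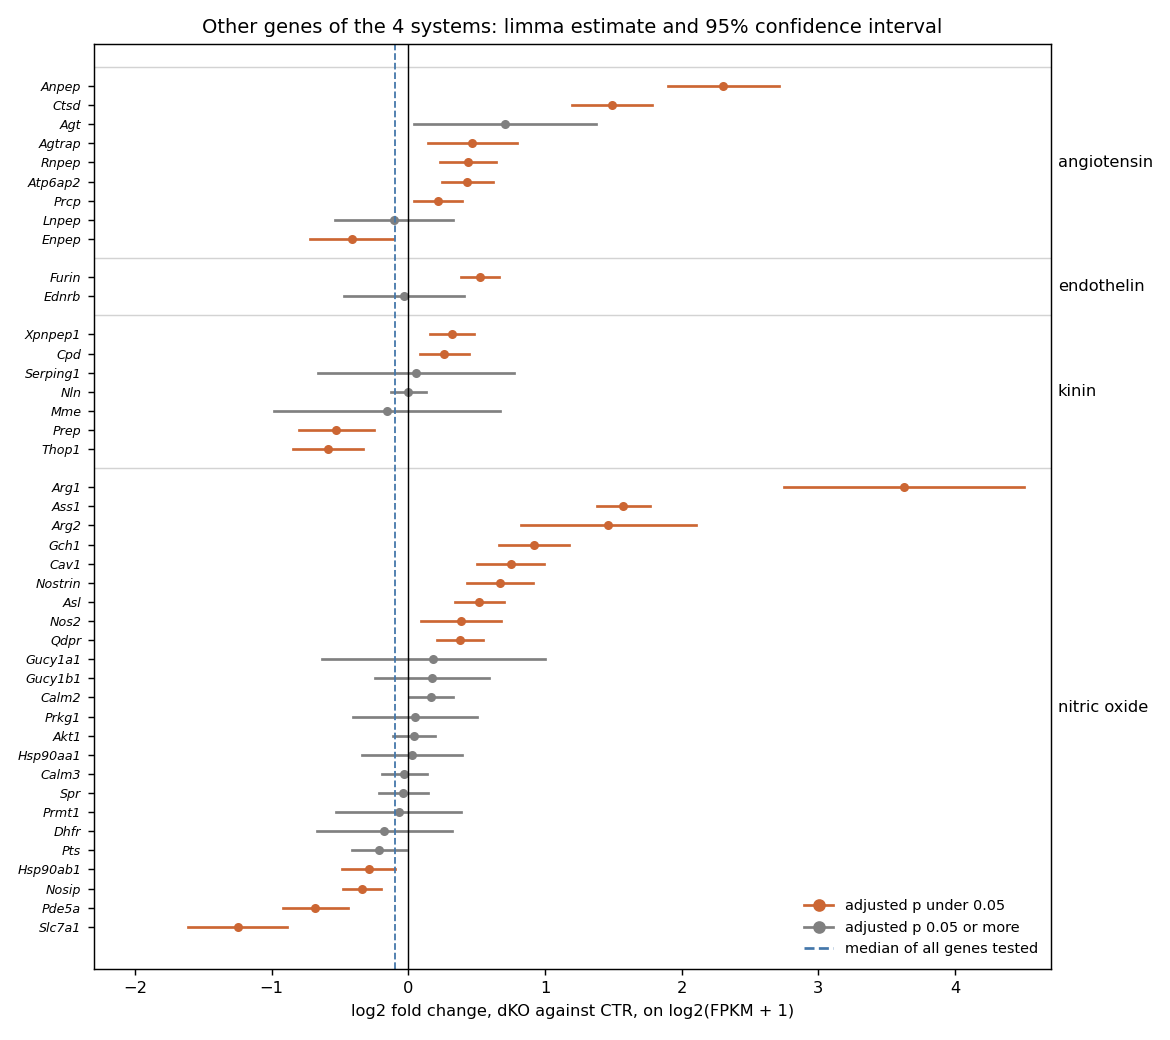
log2 fold change (horizontal axis, dKO against CTR, on log2(FPKM + 1)) with 95% confidence intervals for 42 of the 43 tested genes of the nitric oxide, kinin, endothelin and angiotensin lists that are not among the 10, grouped by system. Orange marks an adjusted p under 0.05: 18 genes lie to the right of 0 and 7 to the left, with Arg1 farthest right and Slc7a1 farthest left.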

How the data were processed

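MLECs were sequenced in 6 CTR and 6 dKO libraries. The authors deposited FPKM for each gene and library, on build mm39. The study's methods name FastQC, Trimmomatic and STAR, and per the labels Bowtie2 2.2.3, HISAT2 2.1.0, TopHat2 and DESeq2 were used, without roles. The labels' extraction text describes retinas, unlike the titles and the methods. The counter, annotation and strand setting are not given in the sources used here. FPKM is relative to the library total, so a few abundant genes can shift all others.

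Symbols and positions came from GENCODE vM39, which matched 27706 of 28689 genes. limma 3.58.1 in R 4.3.3 was fitted with a mean-variance trend on log2(FPKM + 1) for genes reaching 1 FPKM in 6 or more libraries, with Benjamini-Hochberg adjustment over 12467 genes, and was tested on simulated data. Two-sided exact permutation tests used every split of the libraries into groups of 6. Ratios used FPKM + 0.1. Whole fragments were recovered for all 28689 genes, within 0.002 of a fragment, and tested with limma-voom as an alternative, which called 2539 genes higher and 4070 lower. The precision of low genes is limited by their fragments, and no interval was made from counting error. Column names give the dKO libraries as tamoxifen-treated, although both groups received it, and Sp1 served as the check.

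The members and lists were chosen with earlier results of these data known. All 10 members, Sp1 and Sp3 were named, with, of each list, up to 3 genes with the largest rise and 3 with the largest fall among those called, partners in a ratio, and the 3 genes most like Nos3, Edn1 and Ace within groups. Other list genes, overlapping genes and markers were named after their values were seen. A few planned results, among them 1 ratio and 1 promoter, are not reported here.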

Additional observations from a re-analysis of the deposited data

Results flagged for a closer look

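Within each group of 6 libraries the highest or lowest value was compared with its nearest neighbour by Dixon's criterion, whose critical value is 0.625, for the members and the other named genes. Of 54 groups looked at, 3 were flagged, and chance flags about 1 in 20, or 2.7 groups.

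Nos3 in CTR replicate 4 was 2.52 FPKM, while the other 5 CTR libraries were 1.24 to 1.68 FPKM. Prep, a peptidase that cleaves bradykinin among other small peptides, was 11.3 FPKM in dKO replicate 1, while the other dKO libraries were 7.70 to 8.94 FPKM. Anpep, aminopeptidase N, was 30.4 FPKM in dKO replicate 3, while the other dKO libraries were 14.9 to 18.6 FPKM.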

How the results depend on the processing

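Of the members, 5 were higher in dKO, 3 with a minimum of 5 FPKM, where Nos3 and Bdkrb1 are no longer tested, and 4 to 6 under every other alternative; leaving out each library in turn gave 4 to 5. None was lower except with the replicate block, where 1 was (Ednra, adjusted p = 0.0202). Replicate numbers are shared by CTR and dKO. Same-numbered libraries correlated at 0.44, 0.16, -0.045, 0.57, 0.010 and -0.11 for numbers 1 to 6, and 2 of the 6 correlated best with their own number. These mixed values cannot settle whether same-numbered libraries were paired, and the titles give only the number. With the block Edn1 also passed (adjusted p = 0.048). The other list genes gave 16 to 20 higher and 5 to 9 lower over all alternatives. Ddah1 ran from -0.0062, without CTR replicate 4, to 0.34 when libraries were left out. Of the ratios, Ace to Cdh5 ran from -1.19 to -0.85 and passed without CTR replicate 6 (-1.19, adjusted p = 0.0346). The cause of these changes was not tested. limma-voom without a filter was chosen after seeing the data, and there Nos3 had an adjusted p of 0.0522. Sp3 passed as lower with TPM (adjusted p = 0.0496) and when CTR replicate 6 was left out (adjusted p = 0.0326). Depth limits Agtr1a, Nos3 and Bdkrb1 most.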

Other observations

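After the values were seen, 2 more ratios within a library were computed, each tested alone. The log2 ratio of Ednra to Pdgfra, the marker most like it within groups, was lower by 0.30 in dKO (SE 0.11, unadjusted exact permutation p = 0.026), with -2.25 to -1.69 in CTR and -2.51 to -2.07 in dKO. The log2 ratio of Bdkrb2 to Cdh5 was higher by 0.41 (SE 0.44, unadjusted exact permutation p = 0.394), within the spread of the libraries.

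Among the other genes of the systems, several followed the pattern that Ednra and Ace shared within groups. Over the 12 centred libraries, r with Ednra was 0.97 for Serping1, the inhibitor of the proteases that release kinins, 0.95 for Agtrap, 0.90 for Enpep and 0.91 for Gucy1a1, a subunit of the nitric oxide receptor. It was -0.98 for the chaperone gene Hsp90aa1 and -0.96 for Prmt1, which makes the asymmetric dimethylarginine that DDAH enzymes degrade. These values are a description, with no test.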
